A study of Mus musculus with 48 samples.

Results

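The interleukin-6 (IL-6) family of cytokines and the STAT3 pathway were followed in mouse lung through 10 genes taken by symbol from the expression table. They are the ligands Il6, Il11, Lif and Osm, the receptor chains Il6st, Il6ra, Osmr and Lifr, the transcription factor Stat3 and the inhibitor Socs3. Each had 1 of the 47561 rows. RNA from whole lungs of 48 adult mice was sequenced, 1 library per mouse, in 16 groups of 3. The groups crossed strain (C3H/HeN, here C3H, or C57Bl/6, here C57B, whose substrain the sources used here give differently), sex, a single intraperitoneal dose of saline or aurothioglucose, and 96 h in room air or hyperoxia. Aurothioglucose (ATG) is a gold compound that inhibits thioredoxin reductase, and it was given at 25 mg/kg. Hyperoxia was oxygen above 95%. Mice are numbered 1 to 48, and levels are FPKM, fragments scaled to transcript length and to all mapped fragments of the library.

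Cytokines of this family signal through gp130, the shared receptor chain encoded by Il6st. IL-6 and IL-11 first bind their own receptor chains, whereas leukaemia inhibitory factor (Lif) and oncostatin M (Osm) pair gp130 with the chains encoded by Lifr and Osmr. The paired receptors activate Janus kinases, which phosphorylate STAT3, and STAT3 induces Socs3, whose product binds gp130 and the kinases and ends the signal. In injured lung the family is known for acute phase gene induction, for effects on leukocyte traffic and for protection of epithelium against oxygen.

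All 10 genes are protein coding in the GENCODE annotation of GRCm38. Among the ligands, Il6 lies at chr5:30013114-30019981 on the plus strand and Il11 at chr7:4772373-4782859 on the minus strand. Osm (chr11:4236420-4241026) and Lif (chr11:4257557-4272514) are neighbours on the plus strand with 16530 bases between them. Among the receptors, Il6st lies at chr13:112464070-112510086 (plus) and Il6ra at chr3:89864059-89913196 (minus). Osmr (chr15:6813577-6874969, minus) and Lifr (chr15:7090614-7197489, plus) are 215644 bases apart. Stat3 lies at chr11:100885098-100939540 and Socs3 at chr11:117966079-117970047, both on the minus strand. Stat3 overlaps Stat5a, and Il6ra overlaps the antisense gene Gm42809, each on the opposite strand. Whether counting used strand was not given in the sources used here, so reads of an overlapping pair may not be told apart. Of the 30-base words in their transcripts, 5.34% for Il11, 3.31% for Il6ra, 2.58% for Stat3 and below 1% for every other member also occur in another gene.

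Bases upstream of RefSeq gene starts are shown for Socs3 and for the ligands with the largest changes in hyperoxia. They come from RefSeq promoter windows on GRCm38.p6, read 5′ to 3′ along the gene, with bases inside annotated exons left out. The stretches are chr5:30012864-30013113 (plus) for Il6, chr11:4257318-4257556 (plus) for Lif, chr7:4778142-4778391 (minus) for the second of the Il11 starts, and chr11:117969452-117969616 (minus) for Socs3. The Il11 and Socs3 stretches lie within the longer GENCODE genes. Capitals mark matches, on either strand, to a STAT motif (TTCNNNGAA), an AP-1 motif (TGANTCA), an NF-kB motif (GGGA, any 4 bases, then CC) or a cyclic AMP response element (TGACGTCA).
Il6: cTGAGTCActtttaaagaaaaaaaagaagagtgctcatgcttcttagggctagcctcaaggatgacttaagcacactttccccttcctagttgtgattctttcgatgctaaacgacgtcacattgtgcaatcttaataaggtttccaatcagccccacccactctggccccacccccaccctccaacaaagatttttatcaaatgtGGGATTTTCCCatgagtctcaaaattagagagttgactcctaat
Lif: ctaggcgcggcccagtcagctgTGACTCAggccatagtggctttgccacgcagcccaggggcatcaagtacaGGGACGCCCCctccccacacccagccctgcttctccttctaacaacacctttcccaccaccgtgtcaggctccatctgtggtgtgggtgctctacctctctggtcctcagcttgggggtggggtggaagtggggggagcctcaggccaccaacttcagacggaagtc
Il11: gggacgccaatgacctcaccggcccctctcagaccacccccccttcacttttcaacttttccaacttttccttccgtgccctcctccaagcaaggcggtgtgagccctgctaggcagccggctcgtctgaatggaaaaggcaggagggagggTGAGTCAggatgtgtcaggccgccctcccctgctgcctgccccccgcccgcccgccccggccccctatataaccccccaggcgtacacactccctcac
Socs3: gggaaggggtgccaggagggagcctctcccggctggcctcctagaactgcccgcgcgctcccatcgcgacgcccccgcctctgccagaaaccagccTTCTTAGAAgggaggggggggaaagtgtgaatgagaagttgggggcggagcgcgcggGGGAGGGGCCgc

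The 250 bases before each RefSeq start were searched, which gave 11 windows for 9 members, with 2 windows each for Il11 and Lifr and none for Osm. The STAT motif occurred in 1 member window, that of Socs3, starting 154 bases before the start, and in 7.02% of all 32851 windows of the same length. The AP-1 motif occurred in 3 member windows (Il6, Lif and Il11) and in 6.75% of all windows. The NF-kB motif occurred in 7 member windows (Il6, Lif, Socs3, Il6ra, Osmr and both of Lifr) and in 17.6% of all windows. In Il6 this was a stretch of 11 bases that matched on both strands. The cyclic AMP response element occurred in no member window and in 1.55% of all windows. The first Il11 window and the windows of Stat3 and Il6st, which are not shown, held no match to any of these motifs. A match describes the letters and is not evidence of binding.

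Summed FPKM ranged from 510933 to 748290 among mice. Read totals are not given by the table, but the spacing of low values put relative depth between 0.769 and 1.24 times the median mouse. Correlations between mice of the same group over all genes tested were between 0.933 and 0.979, with a median of 0.968. Mouse 19 (C57B male, saline, hyperoxia) and mouse 33 (C3H female, saline, hyperoxia) correlated least with the other mice of their own groups in hyperoxia. In room air the lowest correlation, 0.933, was that of mice 1 and 2 (C3H males, saline). Mice 19 and 33 also had the highest Il6, and the comparisons were also computed without them, a choice made after seeing the data. Since these mice hold the highest levels of several members, calls made without them can be favoured by the choice. They show how far a count rests on these mice and are no test of the members. The lung markers Sftpc, Scgb1a1 and Ager were above 0 in every mouse. Transcripts of Scgb1a1, the major secretory product of club cells, took 10.4 to 30.2% of summed FPKM in room air and 1.20 to 7.17% in hyperoxia, so that all other genes made up a larger part of the sum in hyperoxia. In whole lung, fewer cells of a type and less RNA per cell cannot be told apart.

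Among the 24 saline mice, the largest log2 changes of the 10 genes in hyperoxia were those of Il6 and Lif. Il6, the acute phase cytokine, was at 0 to 2.23 FPKM (median 0.668) in 12 mice in room air and at 1.76 to 403 FPKM (median 25.3) in 12 mice in hyperoxia. Of the hyperoxia mice, 11 lay above every room air mouse. The log2 change of Il6 was 4.02 (SE 0.56), with a limma adjusted p of 4.2e-06. Lif, a cytokine known to protect lung epithelium, was at 0.784 to 3.46 FPKM (median 2.29) in room air and at 4.97 to 235 FPKM (median 19.1) in hyperoxia, without overlap. Its log2 change was 3.35 (SE 0.39), with a limma adjusted p of 4.37e-07.

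Il11, known for fibroblast activation, was at 0.108 to 0.775 FPKM (median 0.48) in room air and at 0.61 to 113 FPKM (median 4.1) in hyperoxia. In hyperoxia 11 of 12 mice were above all of the room air mice. The log2 change of Il11 was 2.25 (SE 0.47), with a limma adjusted p of 0.000346. Osm, made mainly by neutrophils and macrophages, was at 0.0912 to 1.61 FPKM (median 0.773) in room air and at 0.0734 to 28.6 FPKM (median 1.34) in hyperoxia. Only 5 hyperoxia mice exceeded every room air mouse, and 1 was below them all. The log2 change of Osm was 1.17 (SE 0.37), with a limma adjusted p of 0.0106.

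**Figure D1:**
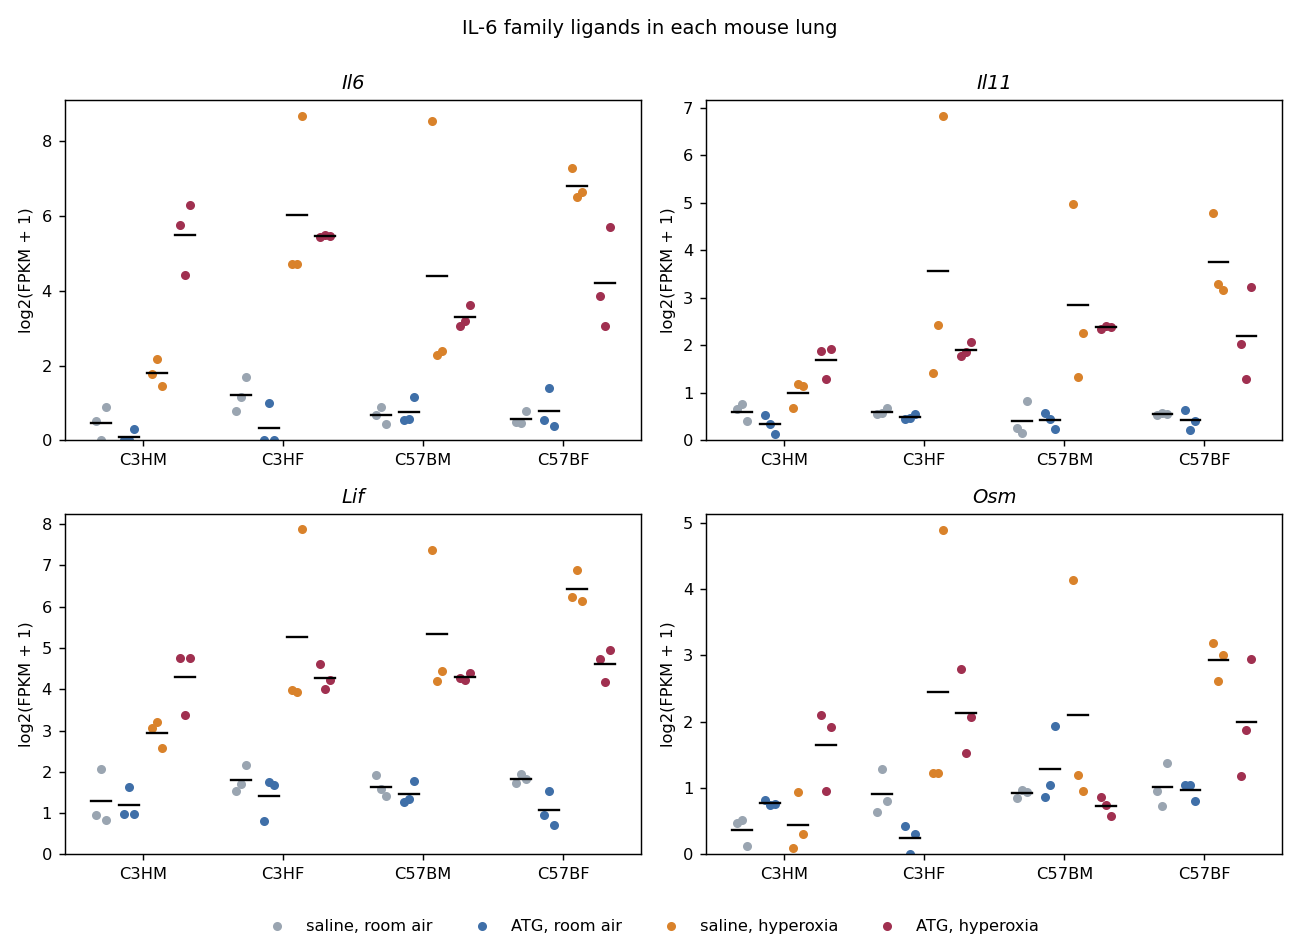
Log2(FPKM + 1) of Il6, Il11, Lif and Osm in each of the 48 mice, by strain and sex (C3HM and C3HF, male and female C3H; C57BM and C57BF, male and female C57B). Points are mice, coloured by injection and air, and black bars are group means of 3 mice; the highest point for Il6, at 403 FPKM, is mouse 33.

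The receptor chains moved in different directions. Osmr, the oncostatin M receptor chain, was at 5.35 to 12.0 FPKM (median 9.14) in room air and at 12.6 to 39.3 FPKM (median 20.5) in hyperoxia. Its groups did not overlap, and the log2 change was 1.26 (SE 0.10, limma adjusted p = 1.29e-09). Lifr, the leukaemia inhibitory factor receptor chain, was at 9.54 to 17.1 FPKM (median 12.9) in room air and at 3.96 to 6.6 FPKM (median 5.39) in hyperoxia. Every hyperoxia mouse was below every room air mouse, and Lifr fell by 1.14 on the log2 scale (SE 0.08, limma adjusted p = 2.3e-10). Lif and its receptor chain thus moved in opposite directions in the same lungs.

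Il6st, which encodes gp130, was the receptor chain with the highest level per length, at 29.5 to 73.4 FPKM (median 61.6) in room air and 57.9 to 81.1 FPKM (median 69.0) in hyperoxia. The groups overlapped, and its log2 change was 0.28 (SE 0.10, limma adjusted p = 0.0186). Il6ra, which binds IL-6 itself, was at 3.35 to 9.99 FPKM (median 5.97) and then 7.96 FPKM at the median, with a range of 3.88 to 14.3 FPKM. Its groups overlapped as well, and its log2 change was 0.29 (SE 0.11, limma adjusted p = 0.0286). Both calls were lost after quantile normalization (Il6st 0.11, adjusted p = 0.339; Il6ra 0.25, adjusted p = 0.0725), and that of Il6ra also without mice 19 and 33 (0.23, adjusted p = 0.0928) and without any 1 of 8 mice. Neither passed in males or in females fitted alone.

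Stat3, the shared transcription factor, was at 20.7 to 45.5 FPKM (median 34.1) in room air and at 52.2 to 104 FPKM (median 79.9) in hyperoxia. The groups did not overlap. The log2 change of Stat3 was 1.18 (SE 0.08, limma adjusted p = 1.03e-10). Socs3, its feedback inhibitor, was at 10.1 to 33.7 FPKM (median 16.3) in room air and at 17.1 to 297 FPKM (median 75.4) in hyperoxia, where 10 of 12 mice exceeded every room air mouse. The log2 change of Socs3 was 2.20 (SE 0.26, limma adjusted p = 4.61e-07). The FPKM spread of Stat3 within hyperoxia was thus much narrower than that of Socs3.

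**Figure D2:**
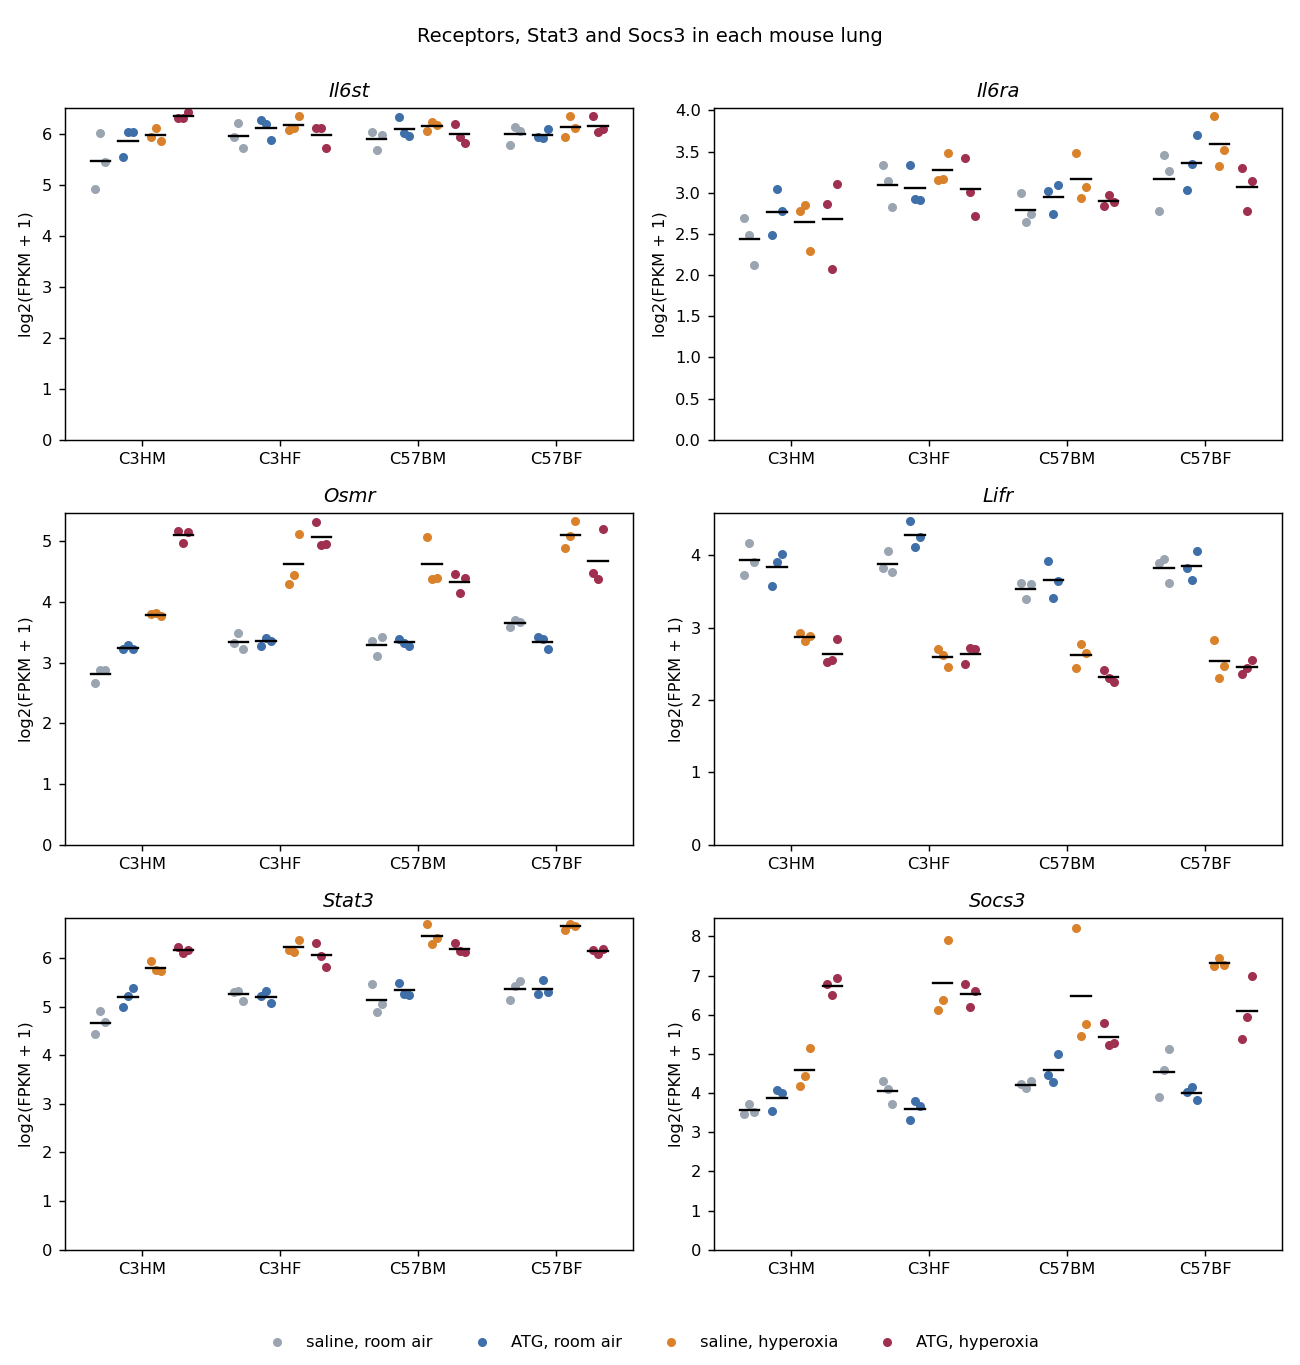
Log2(FPKM + 1) of Il6st, Il6ra, Osmr, Lifr, Stat3 and Socs3 in each of the 48 mice, by strain and sex. Points are mice, coloured by injection and air, and black bars are means of 3 mice; Lifr is lower in hyperoxia than in room air in every group, and Osmr and Stat3 are higher.

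These tests used limma on log2(FPKM + 1), a scale that understates changes of low genes, for genes at 1 FPKM or more in at least 3 mice. P-values were adjusted by Benjamini-Hochberg over all genes tested, with a threshold of 0.05, and measure the spread between these mice. All 10 members passed the threshold, 9 higher and Lifr lower, where 60.1% of the 16321 genes tested did so (31.8% higher and 28.3% lower). Il6, Il11 and Osm reached the filter only through hyperoxia mice, so their part in that count was favoured by the filter. Lif, Osmr, Lifr and Stat3, 4 members, had groups that did not overlap, as did 7.74% of all genes tested. The median change over all genes was 0.013. Among 110 exact permutation tests of mean FPKM within strata of strain and sex (two-sided, 160000 arrangements here), unadjusted p was 1.25e-05, the smallest they can give, for Il6, Lif, Osmr, Lifr, Stat3 and Socs3.

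Mice 19 and 33 raised the size of the ligand changes. Without them the log2 change in hyperoxia was 3.17 for Il6, 2.77 for Lif, 1.58 for Il11 and 0.61 for Osm, and it was 1.85 for Socs3. All of these 5 still passed the threshold. For Stat3, Osmr and Lifr the changes were 1.13, 1.14 and -1.10.

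Within strains, 7 members passed in C3H mice (background 37.8%) and 9 in C57B mice (background 55.5%). Il6, Il11 and Osm reached the filter of this fit only through hyperoxia mice, so their part in these counts was favoured by it. In C3H mice Il6, Lif, Il6st, Osmr, Stat3 and Socs3 rose and Lifr fell, and the estimates of Il11 (1.68, limma adjusted p = 0.0514), Osm (0.81, adjusted p = 0.246) and Il6ra (0.19, adjusted p = 0.365) missed the threshold. In C57B mice Il6st alone missed it (0.20, limma adjusted p = 0.246). The log2 change of Il6 was 3.07 (SE 0.80) in C3H and 4.97 (SE 0.80) in C57B mice, and that of Lif was 2.57 (SE 0.56) and 4.14 (SE 0.56). When mice 19 and 33 were left out, these were 2.42 and 3.93 for Il6 and 1.91 and 3.63 for Lif. In C3H mice the estimate was then 0.86 for Il11 and 0.33 for Il6st, whose call was lost (limma adjusted p = 0.0976), and in C57B mice the call of Il6ra was lost (0.32, adjusted p = 0.103). Il11 moved to the other side of the threshold in C3H mice, and the calls of the remaining members within strains were the same with and without these mice. In males fitted alone, with fewer mice, only 3 of 9 members tested passed in C3H mice, 2 of them higher. In that fit 3380 of 15406 genes passed.

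**Figure D3:**
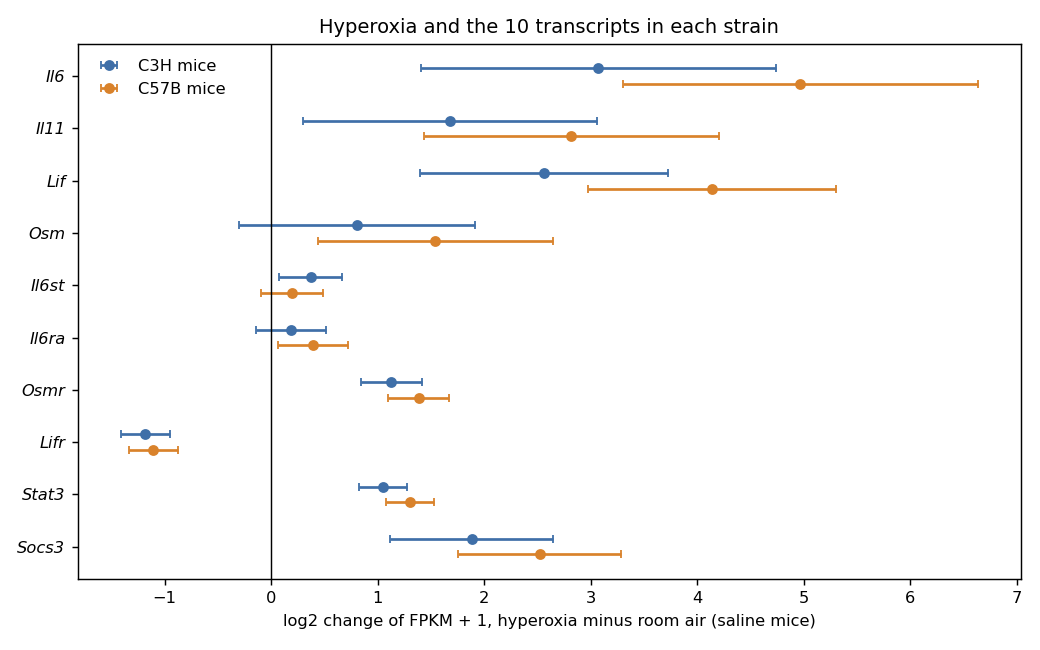
Log2 change of FPKM + 1 from room air to hyperoxia in saline mice for the 10 genes, by strain. Points are limma estimates from 6 mice per air and strain, and bars are 95% confidence intervals; the estimate for Il6 is 3.07 in C3H and 4.97 in C57B mice, and the intervals of the 2 strains overlap for every gene.

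The difference between strains in the response was tested directly. No member passed (0 of 10 by limma), against 11.5% of all genes. None reached an unadjusted p below 0.05 either, where 4571 of the 16321 genes tested did. The estimate, C3H minus C57B, was -1.90 for Il6 (SE 1.13, limma adjusted p = 0.282) and -1.58 for Lif (SE 0.79, adjusted p = 0.197). Without mice 19 and 33 the estimates were -1.52 for Il6, -1.72 for Lif, -1.43 for Il11 and -0.84 for Osm, and the count was 4 members where 12.1% of all genes were called. That count is favoured by leaving out mouse 33, the highest C3H mouse for all 4 ligands, and Il6, Il11 and Osm were tested only through hyperoxia mice. Leaving out mouse 33 alone gave 2 members. The share of all genes in that fit is not given here, so this count is not set against it. The median change over all genes was itself 0.10 in C3H mice and 0.15 for the difference between strains.

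The same test between sexes called no member (0 of 10 by limma), against 0.0368% of all genes. Il6 and Socs3, 2 members, had an unadjusted p below 0.05, as did 2964 of the 16321 genes tested. The estimate for Il6, male minus female, was -2.99 (SE 1.13, limma adjusted p = 0.197). With these mice left out the estimates were -3.37 for Il6, -1.20 for Lif, -0.998 for Osm and -1.28 for Socs3, and the count was 4 members and 3.87% of all genes. Without mouse 19 alone it was 2 members, with no share of all genes beside it here, so this shows only how the count moved. Mouse 19 was the highest male for these 4 genes, so leaving it out favours a lower change in males. Il6 and Osm were also tested only through hyperoxia mice. The median over all genes for this difference was 0.14, and the estimates of Il6st (0.20), Lifr (0.30) and Stat3 (0.10) were positive as well.

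In hyperoxia with saline, Il6 was at 2.43, 3.53 and 1.76 FPKM in C3H males and at 372, 3.83 and 4.21 FPKM in C57B males. It was at 25.4, 25.2 and 403 FPKM in C3H females and at 154, 88.8 and 98.6 FPKM in C57B females. For Il6, 5 of 6 males were below every female, with mouse 19 the exception. The same number of males was below every female for Osm and for Il6ra. The share of all genes with such an order is not given here, so it is not set against these members. Socs3 had the values 17.1, 20.8 and 34.3 FPKM in C3H males, 297, 42.9 and 53.7 FPKM in C57B males, 68.8, 82.1 and 238 FPKM in C3H females, and 150, 173 and 153 FPKM in C57B females. Socs3 likewise had 5 of 6 males below every female, again with mouse 19 above the other males, and the same limit holds.

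Levels in the 12 saline mice in hyperoxia were also compared between sexes, a contrast added after seeing the data. By limma 0 of 10 members differed, against 0.0266% of all genes. At an unadjusted p below 0.05 were 6 members and 2078 of the 15046 genes tested. Il6 was lower in males by an estimate of -3.31 on the log2 scale (SE 1.04, limma adjusted p = 0.268) and Socs3 by -1.52 (SE 0.46, adjusted p = 0.259). The 6 neutrophil markers had estimates of -2.62 (S100a8) to -1.06 (Ly6g), with a median of -2.12 and limma adjusted p of 0.278 or more. Those of the 4 alveolar macrophage markers were -1.13 (Marco) to -0.53 (Cd68), with adjusted p of 0.16 or more. The neutrophil sum was 161 to 4863 FPKM in males, where mouse 19 was the highest, and 180 to 6271 FPKM in females, and the part of these cells in the members' levels was not tested. With mice 19 and 33 left out the count was 6 members, each lower in males, and 4.42% of all genes, and it too is favoured by leaving out the male with the highest Il6.

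Between strains in the same 12 mice, 2 members passed, against 28.2% of all genes. Osmr was at 12.6 to 33.7 FPKM (median 16) in C3H and at 19.8 to 39.3 FPKM (median 30.8) in C57B mice, a log2 difference of -0.65 (SE 0.16, limma adjusted p = 0.0126). Stat3 was at 52.2 to 82.0 FPKM in C3H and at 77.8 to 104 FPKM in C57B mice, a difference of -0.54 (SE 0.09, limma adjusted p = 0.001). The strains overlapped for both, and neither call held in females fitted alone, with fewer mice, where 1178 genes passed. Without mice 19 and 33 the count was 7 members, each lower in C3H mice, and 32.8% of all genes passed. Mouse 33 left out alone also gave 7 members, each lower in C3H mice, with no share of all genes given here. Leaving out the highest C3H mouse favours that direction. Markers of other cells also differed between strains in these mice. All 3 club cell markers were higher in C3H (Scgb3a2 by 2.53), with summed levels of 27212 to 42120 FPKM in C3H and 6935 to 17436 FPKM in C57B mice. Of 4 endothelial markers 3 were higher in C3H (Tek by 1.64), and of 4 alveolar macrophage markers 2 were lower (Chil3, and Marco at -0.85) and 1 was higher (Cd68 by 0.40). Of 5 markers of recruited monocytes and macrophages 2 were higher in C3H (Ly6c2 by 1.33 and Gpnmb by 1.31), as were 2 of 4 T cell markers (Trac by 0.57 and Lck by 0.54). Of the other lists, alveolar type 2 (Sftpa1), alveolar type 1 (Pdpn) and cardiac muscle (Actc1) had 1 marker each higher and fibroblasts (Dcn) 1 lower. The 6 neutrophil markers had a median log2 difference of -1.26, each with a limma adjusted p of 0.166 or more, and summed to 178 to 6271 FPKM in C3H, where mouse 33 was the highest, and 161 to 4863 FPKM in C57B mice. The part of these markers in the strain differences was not tested.

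At baseline, in the 12 saline mice in room air, Il6, Il11 and Osm were below the filter, and 1 of the other 7 members differed between strains, against 11.8% of all genes. This was Osmr, at 5.35 to 10.3 FPKM in C3H and 7.6 to 12.0 FPKM in C57B mice (log2 difference -0.40, SE 0.10, limma adjusted p = 0.0238). The call was lost when any 1 of 6 mice was left out. Cell markers differed between strains at baseline as well. Lower in C3H mice were 5 of 6 neutrophil markers (S100a9 at -1.22, limma adjusted p = 0.00411), all 3 B cell markers (-1.34 to -1.19), 3 of 4 alveolar type 2 markers and 1 of 4 T cell markers. Higher in C3H were 3 of 4 alveolar type 1 markers (Pdpn by 0.65) and 1 of 2 erythroid markers tested (Hba-a1 by 2.18). Of 5 recruited monocyte and macrophage markers 3 were higher and Ccr2 lower, and of 4 alveolar macrophage markers Mrc1 was higher and Chil3 lower. The neutrophil sum was 135 to 312 FPKM in C3H and 181 to 775 FPKM in C57B mice, and the part of these markers in the level of Osmr was not tested. Between sexes 0 of 7 passed by limma, against 0.669% of all genes. Unadjusted p was below 0.05 for 4 members and for 3617 of the 15546 genes tested. The estimate for Osmr was -0.45 (SE 0.10, limma adjusted p = 0.0671). Mouse 2, a C3H male, decided how many members passed. Without it 5 members did, and far more of all genes passed as well, as given in the last section.

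Of 64 other genes of the pathway listed by role, 55 were expressed enough to test for hyperoxia in saline mice, and 31 rose and 14 fell, where 31.8% of all genes rose and 28.3% fell. Their median log2 change was 0.56, where that of all genes was 0.013. Of the 21 tested genes known to be induced through STAT3, 16 rose, 2 fell (Hp and Vegfa) and 3 did not pass, with a median of 1.21. The largest were Saa3, an acute phase apolipoprotein (4.64, SE 0.42), Myc (2.78, SE 0.17), the iron-binding Lcn2 (2.38, SE 0.27) and Hif1a, the oxygen-responsive factor (2.06, SE 0.14). Cntf, Saa1 and Tnf reached the filter only through mice in hyperoxia, so their part in these counts was favoured by it. Timp1, an X-linked member of the STAT3 list, was listed at 0 in all mice and was not tested. The same was true of all 2609 genes of the table that GENCODE places on chromosome X, so this 0 is no measure of its level.

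Among the other ligands Cntf, with the limit from the filter given above, and Clcf1 were higher (0.56 and 0.42) and Ctf1 was lower (-0.69). All 3 tested receptors of other members fell, namely the IL-11 receptor chain Il11ra1 (-0.78, SE 0.17), Cntfr (-0.74, SE 0.11) and Il27ra (-0.88, SE 0.11). Il11 thus rose while its own receptor chain fell. Of 9 kinases and transducers 4 rose and 4 fell, and the phosphatase gene Ptpn11 rose by 1.06 (SE 0.10). Jak1 and Jak2 rose by 0.41 and 0.38, and Tyk2 was at -0.44, a decrease.

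Of 7 brakes on the pathway other than Socs3, 4 rose and 3 fell. The phosphatase genes Ptpn2 (0.89, SE 0.12) and Ptpn1 (0.81, SE 0.12) rose with Cish and Socs2, and Socs1 was lower (-0.53, SE 0.17). Of 4 regulators of Il6 mRNA, 3 rose. These were Zc3h12a, a nuclease that degrades Il6 mRNA (2.07, SE 0.27), Arid5a, which stabilizes it (1.57, SE 0.14), and Zfp36, which promotes mRNA decay (0.74, SE 0.18). Of 4 genes of the NF-kB route that induces Il6, the inhibitor gene Nfkbia (1.03) rose, as did Tnf (0.52), which reached the filter only through mice in hyperoxia. Adam10 and Adam17, proteases that release the IL-6 receptor chain from cells, had changes of 0.06 and -0.03 (limma adjusted p = 0.466 and 0.804).

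Markers of other cells moved with hyperoxia as well. All 6 neutrophil markers (S100a8, S100a9, Csf3r, Cxcr2, Ly6g and Retnlg) rose, with a median log2 change of 1.41. Their summed level was 135 to 775 FPKM (median 274) in room air and 161 to 6271 FPKM (median 879) in hyperoxia, S100a9 was the most abundant, and none was at 0 in all mice. All 4 alveolar macrophage markers and 3 of 5 markers of recruited monocytes and macrophages rose. All 4 T cell, all 3 B cell and all 3 club cell markers fell, as did 4 of 5 cardiac muscle markers and both erythroid markers tested. Of 4 alveolar type 2 markers 3 fell, and the surfactant protein gene Sftpb rose (0.40, limma adjusted p = 0.00579). Of 4 markers each, alveolar type 1 had 2 lower, endothelium 1 higher and 1 lower, and fibroblasts 1 higher.

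In saline mice in hyperoxia the neutrophil sum was 190, 178 and 222 FPKM in C3H males, 4863, 281 and 161 FPKM in C57B males, 180, 1477 and 6271 FPKM in C3H females, and 3972, 2149 and 4130 FPKM in C57B females. The 5 mice with the highest sums (33, 19, 45, 43 and 44) were the 5 with the highest Il6. The C3H female mouse 31 had Il6 at 25.4 FPKM with a sum of 180 FPKM. In room air, C57B males given ATG had sums of 1574, 1806 and 3629 FPKM with Il6 at 0.455, 0.48 and 1.22 FPKM. The part of neutrophils in the members' levels was not tested.

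**Figure D4:**
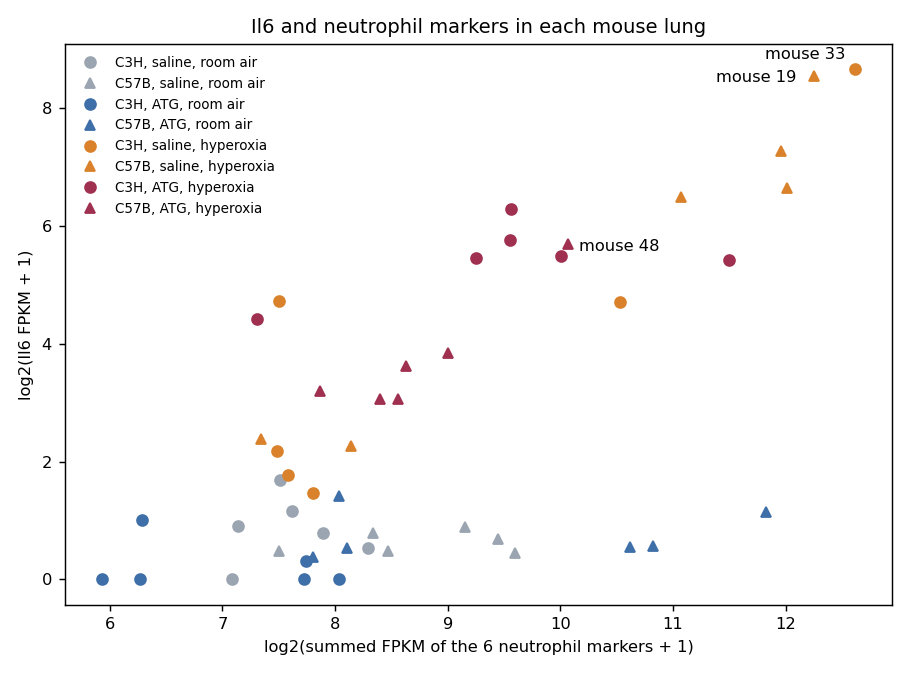
Log2(FPKM + 1) of Il6 against the log2 of the summed FPKM of 6 neutrophil markers plus 1, in 48 mice. Circles are C3H and triangles C57B mice, coloured by injection and air; mice 19 and 33 lie at the top right, and 3 ATG mice in room air have sums of 1574 FPKM or more with Il6 at 1.22 FPKM or less.

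ATG in room air was compared with saline in 24 mice. No member passed (0 of 9 tested by limma), against 0.0185% of all genes, and Il11 was below the filter. An unadjusted p below 0.05 was given by 2 members, Lif and Stat3, and by 1077 of the 16228 genes tested. Lif was at 0.649 to 2.41 FPKM (median 1.48) with ATG and at 0.784 to 3.46 FPKM (median 2.29) with saline. The ranges overlapped, and its log2 change was -0.35 (SE 0.16, limma adjusted p = 0.719).

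In hyperoxia, ATG mice were compared with the same 12 saline mice as above. The ATG mice had narrower ranges of the ligands. Il6 was at 7.34 to 77.1 FPKM (median 31.2) with ATG, inside the range with saline, and Lif was at 9.35 to 29.7 FPKM (median 19.2). Osmr was at 16.8 to 39.1 FPKM (median 29.8), Stat3 at 55.4 to 78.5 FPKM (median 70.4) and Socs3 at 36.4 to 127 FPKM (median 80.8). No member passed (0 of 10 by limma), against 5.47% of all genes. Osmr and Stat3, 2 members, were at an unadjusted p below 0.05, and so were 3472 of the 15860 genes tested. The log2 change was -0.15 for Il6 (SE 0.60, limma adjusted p = 0.92), 0.26 for Osmr (SE 0.11, adjusted p = 0.174), -0.14 for Stat3 (SE 0.06, adjusted p = 0.15) and -0.09 for Socs3 (SE 0.27, adjusted p = 0.887).

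Several cell markers changed with ATG in these mice. Lower with ATG were 2 of 4 endothelial markers (Pecam1 at -0.32 and Tek at -0.41), 2 of 4 alveolar macrophage markers (Chil3 at -0.83 and Mrc1 at -0.43) and 1 of 5 recruited monocyte and macrophage markers (Spp1 at -0.92). Higher were Pdpn, 1 of 4 alveolar type 1 markers (0.36), and Lck, 1 of 4 T cell markers (0.45). Their part in the members' levels was not tested.

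After mice 19 and 33 were left out the count was 1 member, Osmr (0.38), and 6.99% of all genes. The estimates for Il6 and Socs3 then turned positive, at 0.70 and 0.26. In an exact permutation test of mean FPKM, also not adjusted for the 110 tests, Lif had p = 0.0333 (20.4 FPKM with ATG and 62.3 FPKM with saline), and on the log2 scale p = 0.232. Lifr had p = 0.0385 in the same exact permutation test (4.76 FPKM with ATG and 5.36 FPKM with saline), and p = 0.042 on the log2 scale.

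The ATG estimates of several members had opposite signs in the 2 strains, which were compared after seeing the data. In C3H mice Osmr was at 12.6 to 33.7 FPKM (median 16) with saline and at 29.6 to 39.1 FPKM (median 32.6) with ATG, and 3 ATG mice lay above all saline mice. Its log2 change was 0.88 (SE 0.16, limma adjusted p = 0.00619), and it was the 1 member called, against 2.65% of all genes. The estimates for Socs3 (0.94, SE 0.39, adjusted p = 0.218) and Il6 (1.56, SE 0.85, adjusted p = 0.38) missed the threshold. Leaving out mice 19 and 33, of which mouse 33 is C3H and the highest of the saline C3H mice for these genes, gave a count of 5 members, all higher with ATG (Il6 2.21, Lif 0.83, Osm 1.06, Osmr 1.00 and Socs3 1.22), and 8.42% of all genes. The choice favours that direction. In C3H mice ATG also went with lower Pecam1 and Tek (2 of 4 endothelial markers), lower Marco, Chil3 and Mrc1 (3 of 4 alveolar macrophage markers), lower Gpnmb and higher Pdpn, whose part was not tested.

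Among C3H males, a group picked after seeing the data, the 3 saline and 3 ATG mice did not overlap for 8 members, all but Il6ra and Lifr, each higher with ATG, nor for 22.6% of all genes. Il6 was at 2.43, 3.53 and 1.76 FPKM in saline males and at 53.2, 20.4 and 77.1 FPKM in ATG males. Socs3 was at 17.1, 20.8 and 34.3 FPKM and then 110, 89.0 and 122 FPKM, and Osmr at 12.9, 13.2 and 12.6 FPKM and then 34.9, 30.6 and 34.6 FPKM. In C3H females Il6 was at 25.4, 25.2 and 403 FPKM with saline and at 42.0, 44.2 and 43.0 FPKM with ATG. Fitted on females alone, the ATG estimates in C3H mice were negative for Il6 (-0.57), Lif (-0.99), Osm (-0.31), Socs3 (-0.27) and Stat3 (-0.16). Mouse 33 decided the sign for Il6, Lif and Osm, since the other 2 saline females lay below all 3 ATG females for these genes. For Socs3 and Stat3 those 2 mice overlapped the ATG females. The difference between males and females in the ATG response was not tested.

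In C57B mice in hyperoxia, Stat3 was at 77.8 to 104 FPKM with saline and at 66.4 to 78.1 FPKM with ATG. The ranges met only at their ends. Its log2 change was -0.39 (SE 0.08, limma adjusted p = 0.0386), the 1 member called, against 0.864% of all genes. The estimates for Il6 (-1.85, SE 0.85, adjusted p = 0.239), Lif (-1.42, SE 0.57, adjusted p = 0.184), Osmr (-0.35, SE 0.16, adjusted p = 0.231) and Socs3 (-1.13, SE 0.39, adjusted p = 0.133) missed the threshold. Without mice 19 and 33 no member (0 of 10 by limma, 6 at an unadjusted p below 0.05) and 0% of 15767 genes passed, 2323 of them at an unadjusted p below 0.05. Stat3 was then at -0.33 (limma adjusted p = 0.0803). Its call was also lost with limma's eBayes run without trend, with no filter, and in males or females fitted alone. The 6 neutrophil markers had a median estimate of -1.64 with ATG in C57B mice, each with a limma adjusted p of 0.184 or more, and their sum was 161 to 4863 FPKM with saline and 232 to 1075 FPKM with ATG. Their part in the level of Stat3 was not tested.

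The difference between strains in the ATG effect, tested as an interaction, passed for 1 member, Osmr (1.23, SE 0.23, limma adjusted p = 0.0154), against 0.416% of all genes. Fitted within a sex, with fewer mice, the call was lost: the estimate for Osmr was 1.59 in males (limma adjusted p = 0.056) and 0.87 in females (adjusted p = 0.838). The estimates for Socs3 (2.07, SE 0.55, adjusted p = 0.101), Stat3 (0.49, SE 0.12, adjusted p = 0.0823), Il6 (3.41, SE 1.20, adjusted p = 0.232) and Lif (1.60, SE 0.80, adjusted p = 0.398) missed it. Fitted without mice 19 and 33 the count was 6 members, each higher in C3H (Il6 3.03, Lif 1.75, Osm 1.69, Osmr 1.24, Stat3 0.47 and Socs3 1.91), and 1.82% of all genes. With mouse 33 alone left out it was 4 members, and more of all genes passed than with it, as given in the last section. Leaving out the highest saline mouse of C3H favours a higher estimate there.

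Of the 21 tested genes known to be induced through STAT3, 6 rose with ATG in C3H mice in hyperoxia, where 1.6% of all genes rose, with a median of 0.55 where the median of all genes was 0.03. In C57B mice 1 fell, Cebpb, where 0.177% of all genes fell, and the median was -0.52 where that of all genes was 0.07. Saa3 was at 63.9 to 596 FPKM (median 188) in saline C3H mice and at 1828 to 5357 FPKM (median 3738) in ATG C3H mice. These groups did not overlap, as was true of 1.7% of all genes, and the log2 change of Saa3 was 4.20 (SE 0.66, limma adjusted p = 0.00257). In C57B mice Saa3 was at 53.8 to 2306 FPKM (median 287) with saline and at 80.3 to 921 FPKM (median 119) with ATG. Lcn2 rose in C3H mice by 2.03 (SE 0.42, limma adjusted p = 0.0124).

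The interaction passed for 5 of the 21, each higher in C3H mice, as did 0.328% of all genes. They were Saa3 (5.26, limma adjusted p = 0.0142), Lcn2 (2.70, adjusted p = 0.0466), and, named after their values were seen, Cebpb (1.80, adjusted p = 0.0166), Bcl3 (1.68, adjusted p = 0.0396) and Cebpd (1.00, adjusted p = 0.0345). Fitted within a sex, with fewer mice, this interaction called 0 of 15121 genes in males and 1 of 15090 in females. None of these calls thus held in males, and at most 1 held in females. In ATG mice in hyperoxia the neutrophil sum was 752, 158 and 756 FPKM in C3H males, 2887, 1026 and 607 FPKM in C3H females, 375, 232 and 396 FPKM in C57B males, and 513, 337 and 1075 FPKM in C57B females. The marker of alveolar type 1 cells Pdpn passed this interaction as well (0.90). The part of neutrophils and of other cells in these differences was not tested.

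**Figure D5:**
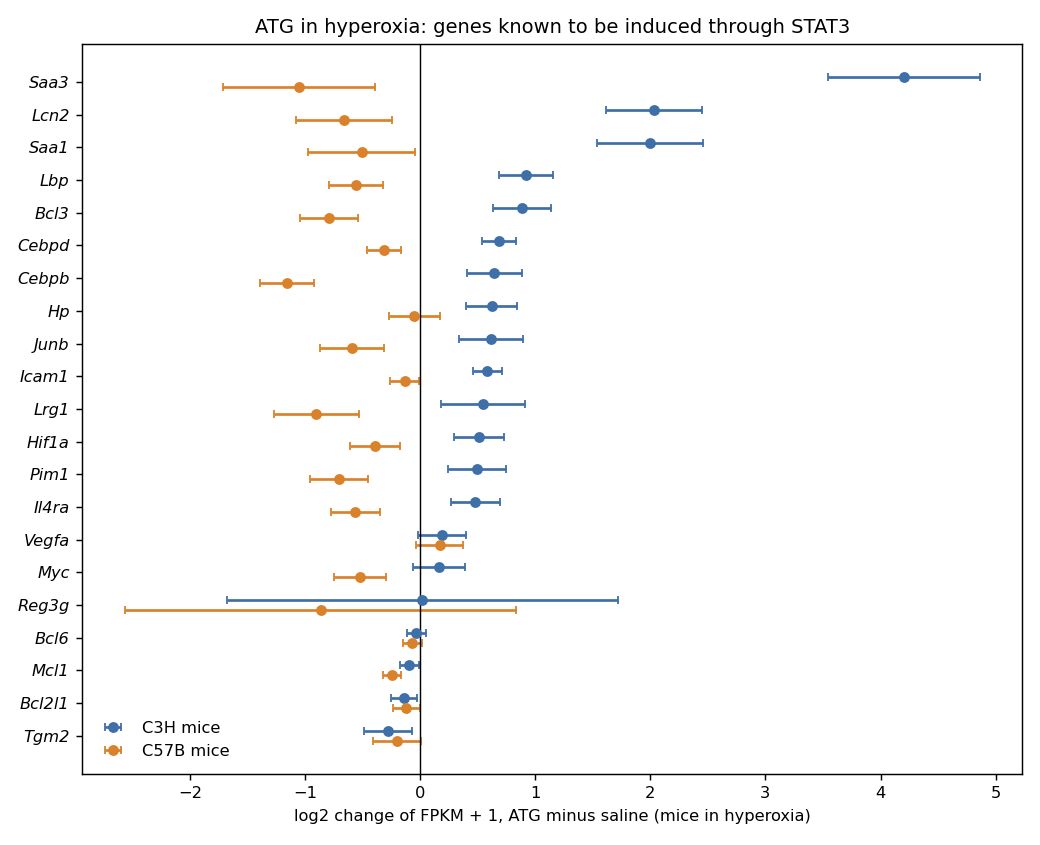
Log2 change of FPKM + 1 with ATG against saline in hyperoxia for the 21 tested genes known to be induced through STAT3, by strain. Points are limma estimates from 6 mice per injection and strain, and bars are ± 1 SE; Saa3 is at 4.20 in C3H mice and below 0 in C57B mice.

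Whether ATG acted differently in hyperoxia and in room air was tested over all 48 mice. No member passed (0 of 10 by limma), against 2.77% of all genes. Il6ra, Lifr and Stat3, 3 members, had an unadjusted p below 0.05, where 3190 of the 16994 genes tested did. The estimate nearest the threshold was that of Stat3 (-0.31, SE 0.10, adjusted p = 0.0662), and it passed after quantile normalization, after median ratio scaling and when any 1 of 4 mice was left out.

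Across the 48 mice, which share the same air and injection contrasts, Il6 followed Socs3 (Pearson r = 0.954 on log2 values), Lif (r = 0.940) and Osmr (r = 0.923). Lifr ran opposite to Il6 (r = -0.808) and Lif (r = -0.856), and Il6st followed Il6 little (r = 0.364). Over 16984 genes, those most like Il6 were the endothelial adhesion gene Selp (r = 0.966) and the chemokine genes Ccl2 (r = 0.962) and Cxcl1 (r = 0.959). Those most like Socs3 were Zc3h12a (r = 0.961), Ccl2 (r = 0.960) and Sbno2 (r = 0.958). Stat3 was most like Ftsj3 and Ddx21 (both r = 0.962) and Etf1 (r = 0.961), genes of ribosome assembly and translation. These values describe the spread across conditions and carry no test.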

How the data were processed

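Lung mRNA libraries of 48 mice were sequenced by the authors, who aligned reads to mm10 with GSNAP and used SAMtools and Cufflinks, per the labels; other settings are not given in the sources used here. The deposited values are FPKM per gene and mouse. Strain, sex, injection and air came from the labels. Log2(FPKM + 1) was fitted in limma 3.58.1 (R 4.3.3; eBayes with trend) for genes at 1 FPKM or more in at least 3 mice of each fit, with group means as the model and Benjamini-Hochberg adjustment over all genes tested; the fit was tested on simulated data. Akap5 was left out, since 7 mice held failed estimates. Comparisons in hyperoxia share their 12 saline mice. All 10 members were named, and from most lists only some of the genes past the threshold. Some listed genes are not reported here. The members and lists were chosen with earlier results of these data known. FPKM gives no read counts, so depth is known only in relative terms. The series design text and the labels differ on which mice received ATG, and the labels were used.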

Additional observations from a re-analysis of the deposited data

Results flagged for a closer look

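Single mice stood apart in 12 of 80 sets of 6 mice (1 gene in 1 strain, injection and air), with 9 of the 12 in hyperoxia. A mouse was taken to stand apart when its gap to the nearest mouse, as a share of the range of the 6, was above the 95% critical value of Dixon's test. For normally distributed values chance gives about 1 in 20. FPKM of the ligands in hyperoxia were skewed and the sets share mice, so 12 of 80 cannot be read against that rate. In saline C3H mice in hyperoxia this was mouse 33 for Il6 (403 FPKM, share 0.941), Il11 (113 FPKM, 0.966), Lif (235 FPKM, 0.957), Osm (28.6 FPKM, 0.956) and Socs3 (238 FPKM, 0.705). In ATG C57B mice in hyperoxia it was mouse 48 for Il6 (50.8 FPKM, 0.861), Osm (6.71 FPKM, 0.653), Osmr (35.8 FPKM, 0.765) and Socs3 (127 FPKM, 0.738). In room air it was mouse 29 (ATG, C3H) for Il6 at 1.01 FPKM (0.759), mouse 18 (ATG, C57B) for Osm at 2.81 FPKM (0.844) and mouse 39 (saline, C57B) for Osm at 1.61 FPKM (0.678). Mouse 33 had the highest neutrophil marker sum of all mice, 6271 FPKM, mouse 48 the highest of the ATG C57B mice in hyperoxia, 1075 FPKM, and mouse 18 the highest in room air, 3629 FPKM; whether neutrophils account for these values was not tested.

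The effect of ATG in hyperoxia differed between strains by limma's interaction test, C3H minus C57B, for Osmr (1.23, adjusted p = 0.0154), Saa3 (5.26, adjusted p = 0.0142), Cebpb (1.80, adjusted p = 0.0166), Cebpd (1.00, adjusted p = 0.0345), Bcl3 (1.68, adjusted p = 0.0396) and Lcn2 (2.70, adjusted p = 0.0466). This contrast was added after seeing the data. Fitted within a sex, with fewer mice, it called 0 genes in males and 1 in females.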

How the results depend on the processing

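Counts below are genes passing limma's adjusted threshold of 0.05 unless members are named, and the cause of a change was not tested. Over settings other than leaving out 1 mouse, 896 of 1060 values kept their direction and side of the threshold, or stayed within 1.5 times for counts, and 10 turned direction; leaving out 1 mouse did so in 2214 and 6 of 2400. For all saline mice, the hyperoxia calls of every member but Il6st and Il6ra held in each setting that tested them; Osm was below the filter in males only.

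Females only: hyperoxia in C3H 4006, by strain 206; ATG in room air 7, in hyperoxia 9, in C3H 7, in C57B 1, by strain 1, by air 2; strain at baseline 779 and in hyperoxia 1178, with 0 members in the last 2 and in ATG in C3H, in C57B and by strain. ATG in C3H mice then turned negative for Il6 (-0.57), Lif (-0.99), Osm (-0.31), Socs3 (-0.27) and Stat3 (-0.16). Males only: hyperoxia 6403, in C3H 3380 with 3 members, in C57B 5059, by strain 293; ATG in room air 1, in hyperoxia 0, in C3H 162, in C57B 0, by strain 0, by air 4; strain at baseline 782 and in hyperoxia 1544, with 0 members at baseline and for ATG in C57B and by strain. ATG in hyperoxia turned positive in males for Il6 (1.29), Socs3 (0.55) and Stat3 (0.047).

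A fit of all 48 mice, with 16994 genes tested, gave more calls: ATG by strain 234 with 3 members, ATG in C57B mice 457 with 2, hyperoxia by sex 306 and by strain 2994, sex at baseline 1915 with 3 and in hyperoxia 356 with 4, and strain at baseline 2982 with 2. Strain in hyperoxia then had 5 members, with no count of all genes given here to set it against. Without mice 19 and 33, which held the highest Il6, so that calls of members can be favoured by the choice: ATG by strain 287 with 6 members, ATG in hyperoxia 1102 with 1, in C3H 1327 with 5, in C57B 0 with 0, hyperoxia by sex 627 with 4 and by strain 1966 with 4, sex in hyperoxia 657 with 6, strain in hyperoxia 4875 of 14859 genes with 7. Il6 and Socs3 then turned positive for ATG in hyperoxia (0.70 and 0.26). No filter: ATG by air 313, in C57B 57 with 0 members, in room air 5, sex at baseline 40 and in hyperoxia 10. A filter of 0.1 FPKM gave 60 for sex at baseline. eBayes without trend gave 26 genes and 0 members for ATG in C57B mice. Median ratio scaling gave 66 for ATG in C57B mice, 2 for hyperoxia by sex and 1 member for ATG by air; quantile normalization gave 1 member for ATG by air and 0 for strain at baseline. Exact permutation p on log2 values was 0.232 for Lif (ATG in hyperoxia) and 0.045 for Socs3 (strain in hyperoxia).

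Leaving out 1 mouse at a time gave 243 (mouse 42) to 1093 (mouse 2) genes and 0 to 1 members for ATG by air, 37 (mouse 32) to 302 (mouse 33) and 1 to 4 (mouse 33) for ATG by strain, 443 (mouse 8) to 1096 for ATG in hyperoxia, 166 (mouse 32) to 861 (mouse 33) for ATG in C3H, and 3 (mouse 19) to 545 (mouse 21) with 0 to 1 members for ATG in C57B. It gave 3 to 32 (mouse 2) for ATG in room air, 2 to 1270 (mouse 2) and 0 to 2 members (mouse 19) for hyperoxia by sex, 1400 to 3242 (mouse 2) and 0 to 2 (mouse 33) for hyperoxia by strain, 20 to 3640 (mouse 2) and 0 to 5 (mouse 2) for sex at baseline, 0 to 428 (mouse 19) and 0 to 4 (mouse 19) for sex in hyperoxia, and 1306 to 4021 (mouse 2) and 0 to 2 for strain at baseline. Strain in hyperoxia had 2 to 7 members (mouse 33), with no count of all genes given here to set them against. Estimates that turned direction were Il6 for ATG in hyperoxia (-0.41 to 0.37), Socs3 likewise (-0.22 to 0.12) and Lif for ATG in C3H (-0.16 to 0.83). Mice of different groups are not paired. FPKM carries no counts, so members near 1 FPKM in room air are known with low precision.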
